A study of Rattus norvegicus with 9 samples.

Results

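The pyruvate dehydrogenase kinases and the PFKFB enzymes were followed in cultured PASMCs, rat smooth muscle cells of the pulmonary artery, whose wall they contract. The set holds 10 genes: the kinases Pdk1, Pdk2, Pdk3 and Pdk4, the bifunctional enzymes Pfkfb1, Pfkfb2, Pfkfb3 and Pfkfb4, the kinases' substrate Pdha1 and the opposing phosphatase Pdp1. Its members were taken by name from the probe annotation, not by their values. Of 41012 non-control probes carrying 35069 names, 13 bore a member's name. A probe was kept if some group had it well above background on each of its 3 arrays. This held for 12 of the 13 and for 26654 of all probes, so that all 10 genes stood among the 22107 tested.

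Cells of male Sprague Dawley rats at culture generation 4 were profiled in 3 groups of 3 arrays each. The hypoxia+quercetin group was kept under 1% oxygen and treated with quercetin, a plant flavonol, the hypoxia group was kept under 1% oxygen without quercetin, and the normoxia group stayed in a normoxic incubator. All groups had 5% carbon dioxide, went 24 h without serum and then spent 24 h in medium with 10% serum containing either quercetin or 0.1% DMSO. No quercetin dose was stated, and the labels name a microRNA labelling kit although the scanner protocol and the probes are those of a messenger RNA array. Whether replicates came from separate cultures is not stated, and p-values here therefore reflect just the spread among these arrays, possibly a technical one. With 3 arrays per group the precision is limited.

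Pyruvate dehydrogenase turns pyruvate into acetyl-CoA at the entry to the citrate cycle. The kinases phosphorylate its E1 alpha subunit, which Pdha1 encodes, and so shut the enzyme, while the phosphatases reopen it. The PFKFB enzymes make and break the sugar bisphosphate that is the strongest known activator of phosphofructokinase and so of glycolysis. PDK1, PFKFB3 and PFKFB4 are established targets of hypoxia-inducible factor (HIF), which binds hypoxia response elements in DNA.

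The promoter windows of 4 members are shown as examples. Pdk1, Pdk3 and Pfkfb3 were higher in hypoxia than in normoxia, and Pfkfb1 was lower. Other members changed too. Each window is the RefSeq sequence on assembly GRCr8 from 250 bases before to 50 bases after the annotated gene start, 5′ to 3′ on the gene's strand, and lies at chr3:77113264-77113563 (plus strand) for Pdk1, chrX:62547322-62547621 (minus) for Pdk3, chr17:71944683-71944982 (plus) for Pfkfb3 and chrX:22941926-22942225 (plus) for Pfkfb1. Capitals mark the core letters of the hypoxia response element, ACGTG or GCGTG, searched on both strands, so that CACGT and CACGC are the same motifs read on the other strand.
Pdk1: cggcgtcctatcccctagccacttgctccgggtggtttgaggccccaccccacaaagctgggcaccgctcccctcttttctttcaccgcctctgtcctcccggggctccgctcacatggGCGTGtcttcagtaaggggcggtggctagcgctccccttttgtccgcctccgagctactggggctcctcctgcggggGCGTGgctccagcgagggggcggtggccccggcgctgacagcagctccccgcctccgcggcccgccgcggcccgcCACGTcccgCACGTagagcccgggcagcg
Pdk3: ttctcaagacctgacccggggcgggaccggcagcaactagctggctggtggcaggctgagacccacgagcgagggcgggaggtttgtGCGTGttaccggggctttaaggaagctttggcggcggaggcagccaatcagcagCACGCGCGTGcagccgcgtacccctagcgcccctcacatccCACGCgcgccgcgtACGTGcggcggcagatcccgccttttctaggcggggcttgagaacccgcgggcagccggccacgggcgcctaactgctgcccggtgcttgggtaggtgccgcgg
Pfkfb3: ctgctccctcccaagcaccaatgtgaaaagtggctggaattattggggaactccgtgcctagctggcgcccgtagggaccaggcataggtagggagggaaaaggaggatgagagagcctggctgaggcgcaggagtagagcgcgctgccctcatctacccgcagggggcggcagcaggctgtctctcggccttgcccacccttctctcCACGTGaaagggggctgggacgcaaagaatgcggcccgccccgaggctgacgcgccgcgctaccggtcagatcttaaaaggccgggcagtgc
Pfkfb1: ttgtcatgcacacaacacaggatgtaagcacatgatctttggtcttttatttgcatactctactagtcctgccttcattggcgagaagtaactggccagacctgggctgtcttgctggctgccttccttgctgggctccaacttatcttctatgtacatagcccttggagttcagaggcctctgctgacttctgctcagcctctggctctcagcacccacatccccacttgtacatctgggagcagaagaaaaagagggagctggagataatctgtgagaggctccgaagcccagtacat

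Pdk1 held 4 matches, with GCGTG at positions -131 and -54 from the gene start and CACGT at 22 and 31. Pdk3 held 5, of which a CACGC and a GCGTG shared the stretch CACGCGCGTG. The 2 matches of Pfkfb3 were the 2 strands of a single CACGTG at -42, and Pdk2 likewise had 1 CACGTG at -143. Pdha1 held 3 matches, whereas the windows of Pdk4, Pfkfb1, Pfkfb2 and Pfkfb4 held none. Of the members without a match, Pdk4 and Pfkfb4 were called higher in hypoxia against normoxia and Pfkfb1 lower. Of the 9 members found in the promoter table, 5 thus had at least 1 match. So did 41.64% of all 33469 promoters in the table and 45.8% of the 21851 promoters of protein-coding genes. These short letters were therefore common among promoters. A match describes letters only, and the absence of one says nothing on a factor bound elsewhere.

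Each probe is 60 bases long and was placed by the array design on rat build rn4. The Pdk1 probe and the dimmer of the Pdk3 probes are printed because, among the kept probes, these span more genomic bases than their length. A probe across joined exons would do so, but exon positions were not checked. The Pdk4 probe that was not kept spans 1889 genomic bases. The printed ones span chr3:54302974-54303274 (301 genomic bases, plus strand) for Pdk1 and chrX:81141007-81145816 (4810 genomic bases, minus strand) for Pdk3.
Pdk1 probe: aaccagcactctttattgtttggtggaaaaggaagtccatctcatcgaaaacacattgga
Pdk3 probe, dimmer: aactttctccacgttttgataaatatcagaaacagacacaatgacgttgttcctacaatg

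Levels below are log2 of the spot's processed intensity relative to the 75th percentile of its array, so that 0 is the brightness of the 75th percentile and a step of 1 is a 2-fold difference. A level is compared only with the same probe on other arrays. Changes are differences between group means ± standard error (3 arrays per group), tested with limma over all 22107 genes with Benjamini-Hochberg adjustment, and a gene counts as changed at an adjusted p under 0.05. In bulk samples fewer cells of a type and less RNA per cell cannot be told apart.

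Arrays differed in ways the groups do not explain. The hypoxia+quercetin arrays had their own slide, and an effect of slide cannot be told apart from one of quercetin. The hypoxia arrays were on the slide of normoxia replicate 3, while normoxia replicates 1 and 2 were together on another, scanned on the first day. Most genes moved: 64.2% of those tested were called in hypoxia against normoxia, 58.4% with quercetin against hypoxia and 44.3% with quercetin in hypoxia against normoxia. Directions depend on the scaling, since with 8 labelling spike-in probes in place of the 75th percentile the median change of all genes was -0.40 instead of 0.10 in hypoxia against normoxia and -0.37 instead of 0.04 with quercetin against normoxia. The calls then split into 2664 higher and 10762 lower (7803 and 6392 by the percentile) and into 1640 and 9835 (5084 and 4709). Changes of the members are tested against 0, without subtracting the median of all genes, and are to be read beside that median. Under the spike-in scaling, a difference from normoxia near 0 thus lies above the median of all genes.

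The cells carried smooth muscle markers, with 7 of 8 listed genes measured and the Acta2 probe not identified by name. Their summed level, in units of the array's 75th percentile, was 95.4 to 113 with quercetin, 322 to 343 in hypoxia and 137 to 210 in normoxia. Of 6 epithelial markers, Krt7, Krt8 and Krt18 were measured and Epcam, Cdh1 and Krt19 were not well above background, and the sum was 7.36 to 8.93, 39.4 to 46.8 and 3.69 to 5.42 in the same order of groups. Of 8 leukocyte markers 5 were measured (2.61 to 2.67, 3.50 to 3.86 and 4.11 to 5.56), and of 6 endothelial markers only Cdh5 and Kdr (0.0601 to 0.111, 0.134 to 0.160 and 0.0962 to 0.112). The 6 fibroblast markers summed to 49.0 to 62.2 with quercetin, 156 to 163 in hypoxia and 123 to 225 in normoxia, a sum in which the bright S100a4 hides single genes. In hypoxia against normoxia Dcn fell by 4.24, Lum fell by 3.62 and Fap fell by 1.45, Thy1 rose by 0.38, and the list's median was -0.68. All 6 were lower with quercetin than in normoxia (median -2.45), as were 21.3% of all genes. The 5 measured leukocyte markers went both ways, with 2 higher and 1 lower in hypoxia against normoxia (35.3% and 28.9% of all genes). With quercetin against hypoxia 1 was higher and 3 were lower (26.9% and 31.6% of all genes). Lyz2 rose by 4.10 in hypoxia against normoxia and fell by 1.65 with quercetin against hypoxia. Against this, Cd14 changed by -0.95 in hypoxia against normoxia, and Cd68 passed as higher with quercetin against hypoxia. The smooth muscle, epithelial and endothelial sums were highest in hypoxia, as were most members, but the bright Tagln dominates the smooth muscle sum. Of the 7 smooth muscle markers, 4 passed as higher in hypoxia against normoxia, as did 35.3% of all genes. Smtn, Lmod1 and Mylk did not pass (-0.20, 0.43 and -0.81). The part of all these markers in the members' changes was not tested.

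Hypoxia against normoxia asked what low oxygen does to these enzymes. All 4 kinases rose, by 1.58-fold for Pdk2 to 4.51-fold for Pdk1, and so did Pfkfb3, Pfkfb4 and Pdha1, while Pfkfb1 fell. The order of Pdk1 and Pdk3 was not stable, with log2 rises of 1.54 and 1.60 without normoxia replicate 2 and of 1.48 (not passing) and 1.62 with slide as a block. Pfkfb2 and Pdp1 did not pass. In numbers, 7 members were higher and 1 was lower, against 35.3% of all genes higher and 28.9% lower, and the members' median change was 0.75, against 0.10 for all genes. The arrays of the 2 groups did not overlap for 8 members, as for 71.7% of all genes.

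Quercetin in hypoxic cells was then set against hypoxia alone. Pdk1, Pdk2, Pdk3, Pfkfb4 and Pdha1 fell, by 1.36-fold for Pdk3 to 3.07-fold for Pdk1, and Pfkfb1 rose 5.21-fold. Pdk4, Pfkfb2, Pfkfb3 and Pdp1 did not pass. Over all genes 26.9% were higher and 31.6% lower, and the median change was -0.54 for the members and -0.08 for all genes. The arrays did not overlap for 7 members, as for 71.1% of all genes. This comparison and the previous one share the hypoxia arrays, so their values stand side by side only.

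Against normoxia, the cells given quercetin in hypoxia had higher Pdk3, Pdk4, Pfkfb1 and Pfkfb2, between 1.48-fold and 2.45-fold. No member was lower, and the other 6 did not pass, where 23.0% of all genes were higher and 21.3% lower. The members' median change was 0.56, against 0.04 for all genes, but without normoxia replicate 2 it was 0.057, against 0.020. In that fit 3 members were called, and 44.7% of all genes. The arrays did not overlap for 4 members, as for 53.6% of all genes.

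**Figure D1:**
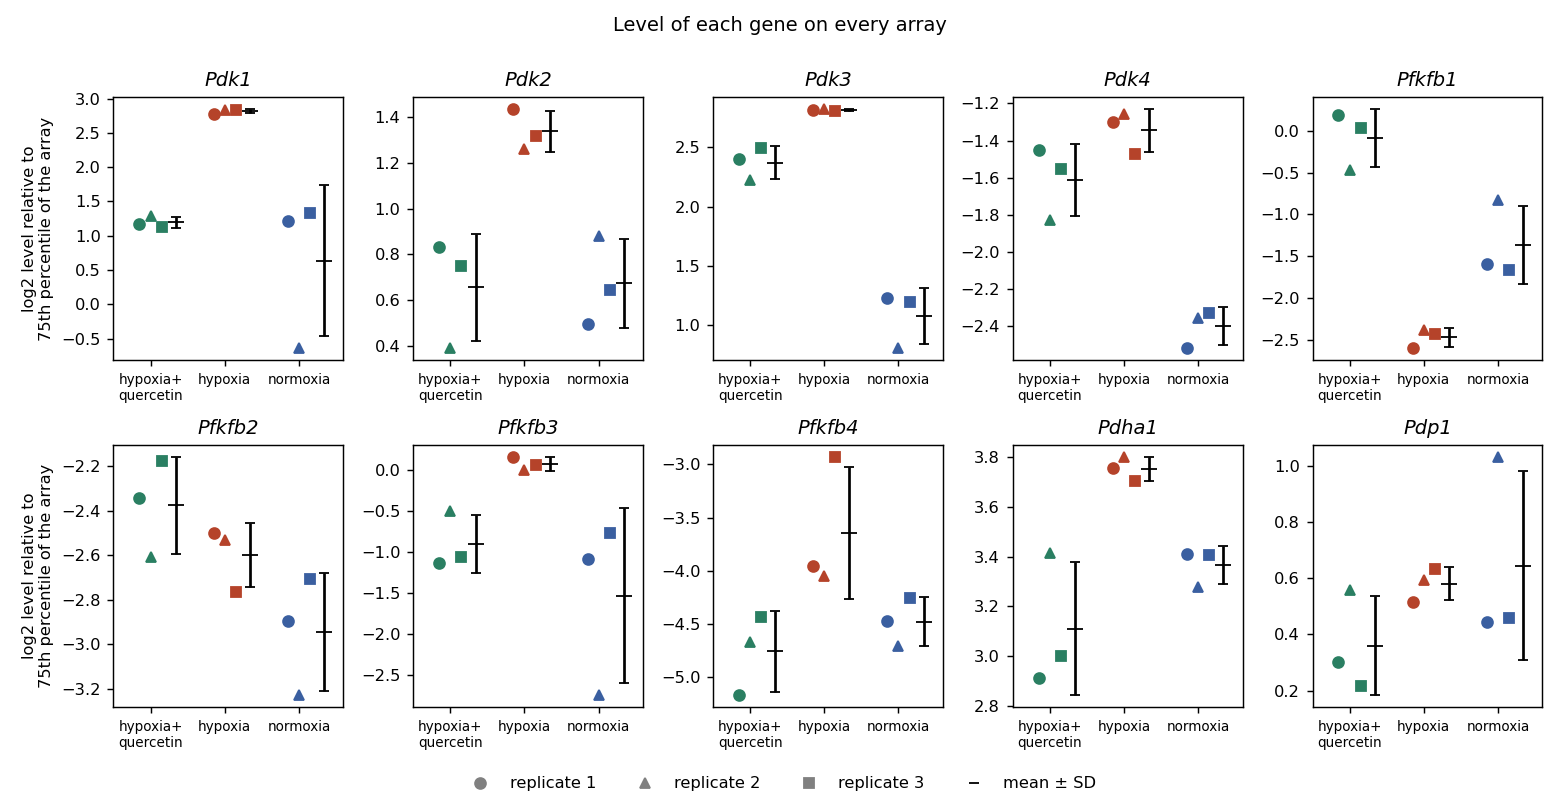
Log2 level relative to the array's 75th percentile (vertical axis) of each member's brightest kept probe on every array, by group (horizontal axis). Symbols are replicates 1 to 3 and the bar is the mean ± SD (n = 3). Hypoxia arrays sit above both other groups for Pdk1, Pdk2, Pdk3, Pfkfb3, Pfkfb4 and Pdha1 and below both for Pfkfb1, and normoxia replicate 2 lies far below its group for Pdk1 and Pfkfb3.

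Pdk1, the kinase best known as a HIF target, had levels of 1.17, 1.29 and 1.13 with quercetin in hypoxia, 2.78, 2.84 and 2.83 in hypoxia, and 1.22, -0.63 and 1.34 in normoxia. The hypoxia arrays lay above all others and close together, the quercetin arrays lay from just below normoxia replicate 1 to between replicates 1 and 3, and normoxia replicate 2 stood far below the rest. Pdk1 rose by 2.17 ± 0.45 in hypoxia against normoxia (adjusted p = 0.0031) and fell by 1.62 ± 0.45 with quercetin against hypoxia (0.014). Quercetin-treated and normoxic cells differed by 0.56 (adjusted p = 0.35), with a 95% interval from -0.47 to 1.59. Without normoxia replicate 2 the hypoxia rise was 1.54 (adjusted p = 1.5e-05) and the quercetin difference from normoxia was -0.08 (0.46). With slide as a block, which leaves normoxia replicate 3 as the only normoxia array beside the hypoxia arrays, the rise was 1.48 and did not pass (adjusted p = 0.072).

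Pdk2, the most widely expressed kinase of the family, showed levels of 0.83, 0.39 and 0.75 with quercetin, 1.43, 1.26 and 1.32 in hypoxia, and 0.50, 0.88 and 0.64 in normoxia. Hypoxia arrays stood above both other groups, which overlapped. The gene rose by 0.66 ± 0.14 in hypoxia (adjusted p = 0.0040) and fell by 0.68 ± 0.14 with quercetin (0.0039), and the difference between quercetin and normoxia was -0.02 with a 95% interval from -0.35 to 0.31. The hypoxia rise was 0.69 with slide as a block. Scaled to the spike-ins it was 0.16 and did not pass (adjusted p = 0.48), against a median of -0.40 for all genes.

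Pdk3, a kinase with high specific activity, was read by 2 probes. The brighter one had levels of 2.40, 2.22 and 2.50 with quercetin, 2.82, 2.82 and 2.81 in hypoxia, and 1.23, 0.81 and 1.20 in normoxia. The 3 groups did not overlap, in the order hypoxia, quercetin, normoxia, and the hypoxia arrays were nearly identical. The rise in hypoxia was 1.74 ± 0.13 (adjusted p = 1.5e-05) and the level with quercetin stayed 1.29 ± 0.13 above normoxia (1.4e-04). The block for slide left a hypoxia rise of 1.62 (adjusted p = 6.3e-04).

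The fall of Pdk3 with quercetin against hypoxia was 0.44 ± 0.13 by the brighter probe (adjusted p = 0.017), and its dimmer probe differed by -0.18 ± 0.12 and did not pass in the fit over all probes (0.25). That probe had -0.70, -0.91 and -0.59 with quercetin, -0.54, -0.55 and -0.58 in hypoxia, and -1.90, -2.28 and -2.01 in normoxia. Its quercetin arrays all lay just below its hypoxia arrays, and both groups were far above normoxia, by 1.33 ± 0.12 with quercetin and 1.51 ± 0.12 in hypoxia (adjusted p = 9.6e-05 and 2.2e-05). The call on the quercetin fall was lost under 5 of 20 alternatives: without hypoxia+quercetin replicate 2 (-0.37, adjusted p = 0.053), under the spike-in scaling (-0.35, 0.086), with quantile normalization (-0.30, 0.082), in the deposited table (-0.30, 0.084) and with the mean of both probes (-0.31, 0.063).

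Pdk4, the kinase that responds to fasting and fatty acids, had levels of -1.45, -1.83 and -1.55 with quercetin, -1.30, -1.26 and -1.47 in hypoxia, and -2.52, -2.36 and -2.33 in normoxia. Both hypoxic groups lay above normoxia on every array and overlapped each other. It rose by 1.06 ± 0.12 in hypoxia (adjusted p = 1.2e-04), and with quercetin it stayed 0.79 ± 0.12 above normoxia (0.0011). The difference of quercetin from hypoxia was -0.27, with a 95% interval from -0.54 to 0.01 (adjusted p = 0.088). A second Pdk4 probe was well above background on only 1 of 9 arrays and was not tested. With normexp background correction neither call against normoxia held (0.60, adjusted p = 0.096, and 0.54, 0.19), and scaled to the spike-ins the quercetin difference from normoxia was 0.38 and did not pass (0.075). The hypoxia rise was 0.98 once slide was a block (0.0040).

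Pdha1, the E1 alpha subunit that the kinases phosphorylate, had levels of 2.91, 3.41 and 3.00 with quercetin, 3.75, 3.80 and 3.70 in hypoxia, and 3.41, 3.28 and 3.41 in normoxia. Hypoxia arrays were the highest, and quercetin replicate 2 reached the normoxia level while the other 2 quercetin arrays lay below it. The fall of 0.64 ± 0.13 with quercetin against hypoxia (adjusted p = 0.0034) was called under all 20 alternatives, which could not include slide as a block. The rise of 0.39 ± 0.13 in hypoxia (adjusted p = 0.030) lost its call under 13 of 21 alternatives. It turned under 1, the spike-in scaling (-0.11, against a median of -0.40 for all genes). It failed without normoxia replicate 1 (0.057) or 2 (0.077) or hypoxia replicate 1 (0.073), 2 (0.084) or 3 (0.055). It also failed with quantile normalization and in the deposited table (0.23 in both, adjusted p = 0.14), with normexp (0.21), median scaling (0.066) or no filter on dim probes (0.071), and with slide or scan day (0.19) or replicate number (0.053) as a block. Quercetin and normoxia differed by -0.26 (adjusted p = 0.15), which passed without hypoxia+quercetin replicate 2 (-0.41, 0.0080) and under the spike-in scaling (-0.66, 8.7e-04).

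Pdp1, a phosphatase that removes the kinases' phosphate, had levels of 0.30, 0.56 and 0.22 with quercetin, 0.52, 0.59 and 0.63 in hypoxia, and 0.44, 1.03 and 0.46 in normoxia. The 3 groups overlapped, and normoxia replicate 2 was the highest array. Differences were -0.06 for hypoxia against normoxia, -0.22 for quercetin against hypoxia and -0.29 for quercetin against normoxia (adjusted p = 0.75, 0.29 and 0.21), with 95% intervals reaching no further than -0.67 and 0.32. Scaled to the spike-ins, where all genes shifted down, hypoxia and quercetin each passed as lower than normoxia (-0.57, adjusted p = 0.016, and -0.69, 0.0079).

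**Figure D2:**
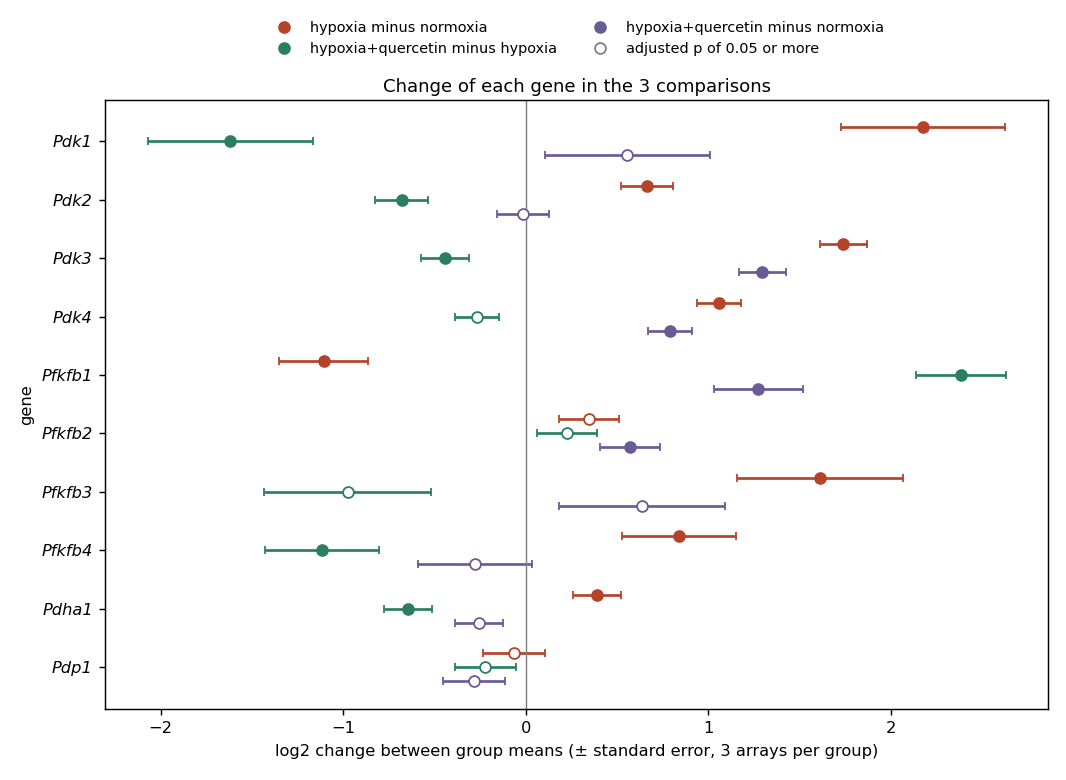
Log2 change of each member (vertical axis lists the genes, horizontal axis the change ± standard error, 3 arrays per group) in the 3 comparisons, with open circles where the adjusted p was 0.05 or more. In hypoxia Pdk1 rose by 2.17 and Pdk3 by 1.74 (1.54 and 1.60 without normoxia replicate 2), and Pfkfb1 fell by 1.11 in hypoxia and rose by 2.38 with quercetin.

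Pfkfb1, the isoform first known from liver and muscle, was the member that fell in hypoxia and rose with quercetin against hypoxia. Its levels were 0.19, -0.47 and 0.03 with quercetin, -2.59, -2.38 and -2.42 in hypoxia, and -1.59, -0.82 and -1.67 in normoxia. No groups overlapped: quercetin arrays were highest and hypoxia arrays lowest. It fell by 1.11 ± 0.25 in hypoxia against normoxia (adjusted p = 0.0044) and rose by 2.38 ± 0.25 with quercetin against hypoxia (9.1e-05), ending 1.27 ± 0.25 above normoxia (0.0036). Only 2.14% of all genes changed more with quercetin against hypoxia, in either direction. Both calls on quercetin held under all 20 alternatives. Slide as a block was not among these, since the quercetin arrays had their own slide. The hypoxia fall, for which that block could be fitted, was then -0.80 and did not pass.

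Pfkfb2, the isoform of heart that insulin signalling activates, was read by 2 probes that went apart. The brighter had -2.34, -2.61 and -2.17 with quercetin, -2.50, -2.53 and -2.77 in hypoxia, and -2.90, -3.23 and -2.71 in normoxia. Quercetin arrays lay above normoxia arrays and hypoxia arrays overlapped both. It was 0.57 ± 0.16 higher with quercetin than in normoxia (adjusted p = 0.022), while hypoxia differed from normoxia by 0.35 (0.095) and quercetin from hypoxia by 0.22 (0.27).

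The dimmer Pfkfb2 probe had -4.55, -4.17 and -4.07 with quercetin, -3.99, -4.36 and -4.94 in hypoxia, and -3.97, -4.21 and -3.77 in normoxia, and was not well above background on hypoxia replicate 3 and hypoxia+quercetin replicate 1. Its groups overlapped, and its differences from normoxia were -0.28 with quercetin and -0.44 in hypoxia (adjusted p = 0.39 and 0.14). With the mean of both probes the quercetin difference from normoxia was 0.14 (adjusted p = 0.56). The call on this quercetin difference was lost under 8 of 20 alternatives. The mean of both probes was among them. So was leaving out normoxia replicate 2 (0.43, 0.055) or hypoxia+quercetin replicate 1 (0.55, 0.060) or 3 (0.47, 0.081). The hypoxia difference passed without normoxia replicate 3 (0.47, 0.043).

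Pfkfb3, the isoform with the highest kinase activity relative to its phosphatase activity, had levels of -1.14, -0.50 and -1.06 with quercetin, 0.16, -0.00 and 0.06 in hypoxia, and -1.09, -2.75 and -0.77 in normoxia. Hypoxia arrays were above all others, quercetin and normoxia overlapped, and normoxia replicate 2 was again far below. The gene rose by 1.61 ± 0.46 in hypoxia (adjusted p = 0.014). Without normoxia replicate 2 that rise was 1.00 (adjusted p = 0.0045). Blocked by slide, it was 0.84 and did not pass (0.26). Quercetin against hypoxia differed by -0.98 (adjusted p = 0.098, 95% interval from -2.02 to 0.07), and without normoxia replicate 2, which enters only the shared estimate of spread, the same difference passed (0.0028). Against normoxia the quercetin arrays differed by 0.64 (0.30), and without normoxia replicate 2 by 0.026 (0.93).

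Pfkfb4, an isoform first described in testis and induced by low oxygen, was dim. It had -5.18, -4.67 and -4.44 with quercetin, -3.96, -4.05 and -2.93 in hypoxia, and -4.48, -4.71 and -4.26 in normoxia, and was not well above background on hypoxia+quercetin replicate 1. Hypoxia replicate 3 stood well above the other 2 hypoxia arrays, which lay closer to the normoxia arrays. The rise of 0.84 ± 0.31 in hypoxia (adjusted p = 0.043) lost its call under 14 of 20 alternatives, with values from 0.18 to 1.04. Among these were leaving out hypoxia replicate 3 (0.48, 0.10), normoxia replicate 1 (0.091), 2 (0.12) or 3 (0.051), or hypoxia+quercetin replicate 2 (0.063). With slide as a block the rise was 0.61. The fall of 1.12 ± 0.31 with quercetin against hypoxia (adjusted p = 0.015) failed without hypoxia+quercetin replicate 1 (-0.91, 0.052), and with normexp background correction the difference was 0.05 (0.95). Quercetin and normoxia differed by -0.28 (0.51).

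Blocked by slide, 3 members were called in hypoxia against normoxia, Pdk2, Pdk3 and Pdk4, all higher. In that fit 44.1% of all genes were called. Without normoxia replicate 2, 6 members were called, 5 higher and 1 lower, with 62.2% of all genes called.

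**Figure D3:**
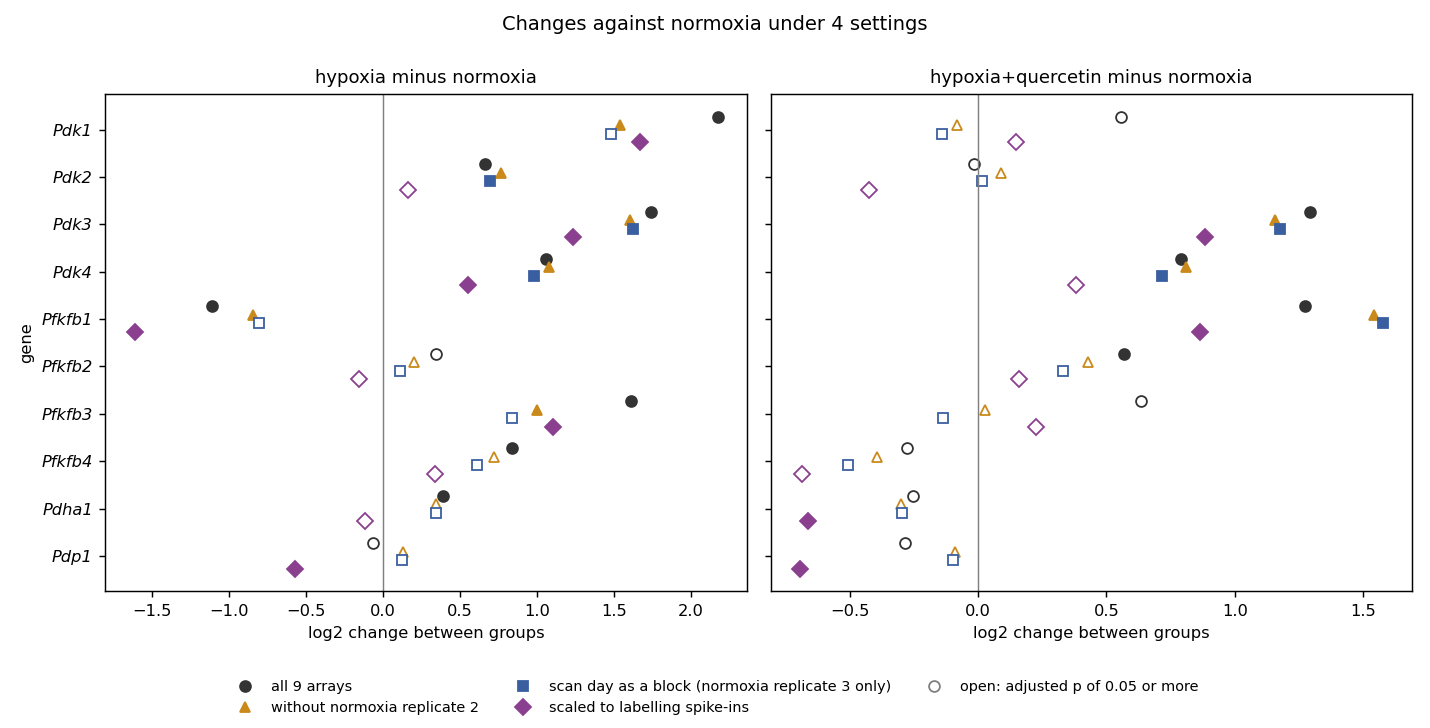
Log2 change of each member in hypoxia against normoxia (left) and in hypoxia with quercetin against normoxia (right) over all 9 arrays, without normoxia replicate 2, with scan day as a block and scaled to 8 labelling spike-in probes. Open symbols have an adjusted p of 0.05 or more. Pdk3 stays filled throughout, while Pdk1 and Pfkfb3 in hypoxia are 1.54 and 1.00 without normoxia replicate 2, against 2.17 and 1.61 over all arrays.

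The other genes of pyruvate entry went both ways in hypoxia. Of 10 measured genes of the complex and of pyruvate entry, 2 were higher, 4 lower and 4 did not pass. Their median change was -0.08. Of all genes, 35.3% were higher and 28.9% lower. Pdp2, the second phosphatase, fell by 0.97 ± 0.10, Pdhx, which anchors the E3 subunit, by 1.00 ± 0.20 and Mpc1, a subunit of the mitochondrial pyruvate carrier, by 0.59 ± 0.08 (adjusted p = 7.2e-05, 0.0024 and 2.6e-04). Ldha, the lactate dehydrogenase subunit that favours lactate formation, rose by 1.80 ± 0.32 (0.0013), and by 1.38 without normoxia replicate 2. The E1 beta gene Pdhb and the E2 gene Dlat did not pass, at 0.11 and -0.05. With slide as a block 1 of the 10 was higher and 3 were lower.

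With quercetin against hypoxia, 4 of these 10 were higher and 2 lower, with a median change of 0.13. Of all genes, 26.9% were higher and 31.6% lower. Mpc1 rose by 0.62 ± 0.08, Pdp2 by 0.62 ± 0.10 and Pdhx by 0.67 ± 0.20, and Ldha fell by 0.91 ± 0.32 (adjusted p = 2.4e-04, 0.0010, 0.018 and 0.036). Against normoxia, 2 were higher with quercetin and 3 lower (median -0.07), among them Pc, pyruvate carboxylase, at 0.71 ± 0.10 (7.2e-04), Pdp2 at -0.36, Dld, the E3 subunit, at -0.30 and Dlat at -0.28 (0.020, 0.024 and 0.026). In that comparison 23.0% of all genes were higher and 21.3% lower. Pdp2 was dim, with mean levels of -3.23 with quercetin, -3.85 in hypoxia and -2.87 in normoxia.

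In the list for the fructose phosphate step, all 8 measured genes passed in hypoxia, 7 higher and 1 lower, with a median change of 1.59. Of all genes, 35.3% were higher and 28.9% lower. The list is wider than the enzymes on which the PFKFB product acts, since it takes in Gpi, Aldoa and Aldoc of the neighbouring steps. Aldoc and Aldoa, which are aldolases, rose by 2.82 ± 0.35 and 1.60 ± 0.23, Gpi, glucose phosphate isomerase, by 2.68 ± 0.36 and Pfkm, the muscle phosphofructokinase, by 0.86 ± 0.09. Fbp1, a phosphatase that runs the step backwards, fell by 0.54 ± 0.10 (adjusted p = 0.0017). Fbp2, the other such phosphatase, rose by 0.88 ± 0.28 (0.022). It was dim, with mean levels of -4.05 in hypoxia and -4.93 in normoxia. Without normoxia replicate 2 the Fbp2 rise was 0.69 and did not pass (0.074). Blocked by slide, 5 of the 8 passed, 4 higher and 1 lower, with a median of 0.97, and without normoxia replicate 2 the median was 1.01, with 6 higher and 1 lower.

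With quercetin against hypoxia, 5 of the 8 were lower and none was higher (median -0.96), where 31.6% of all genes were lower and 26.9% higher. Aldoc fell by 2.11 ± 0.35, Fbp1 by 1.40 ± 0.10, Pfkm by 1.28 ± 0.09 and Aldoa by 0.93 ± 0.23. Pfkl and Pfkp, the liver and platelet phosphofructokinases, changed by -0.66 and -0.71 and did not pass (adjusted p = 0.14 and 0.24). Both passed without normoxia replicate 2, where 7 of the 8 were lower and 63.5% of all genes were called. Against normoxia, Gpi and Aldoa were higher with quercetin, by 1.70 ± 0.36 and 0.66 ± 0.23, while Pfkm fell by 0.42 ± 0.09 and Fbp1 by 1.94 ± 0.10. Without normoxia replicate 2 Gpi was 1.20 higher and still passed, and Aldoa was at 0.38 and did not (adjusted p = 0.066).

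**Figure D4:**
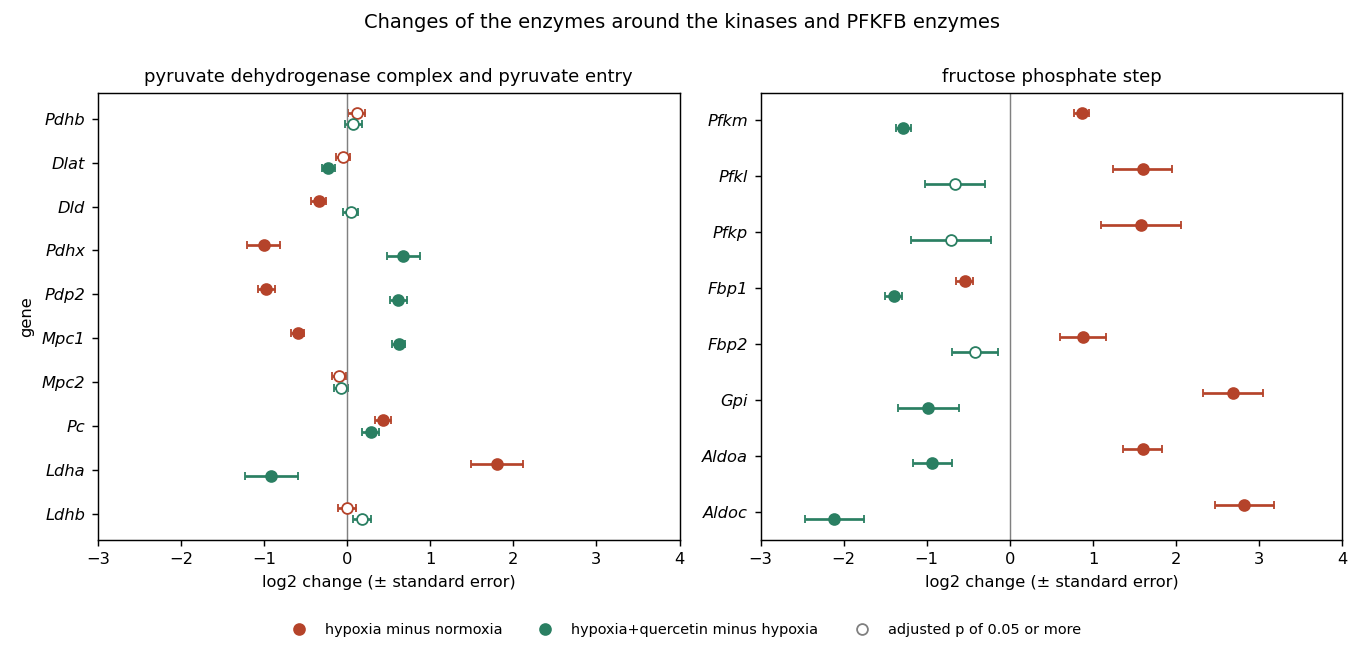
Log2 change ± standard error (horizontal axis, 3 arrays per group) of the genes of the pyruvate dehydrogenase complex and pyruvate entry (left) and of the fructose phosphate step (right), in hypoxia against normoxia and with quercetin against hypoxia. In the right panel 7 of 8 genes were higher in hypoxia, whereas Pdp2, Pdhx and Mpc1 in the left panel fell by 0.97, 1.00 and 0.59.

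The genes whose levels over the 9 arrays were most like those of 3 members were looked up among all genes with a symbol, as a description with no test. For Pdk1 they were Tmem45a (Pearson r = 0.998), Ankrd37 (0.997) and Mgarp (0.995), with r of 0.997, 0.997 and 0.993 without normoxia replicate 2. Their differences follow from this choice and are given as values only: 2.11 for Tmem45a, 3.10 for Ankrd37 and 2.11 for Mgarp in hypoxia against normoxia, and -1.62, -2.50 and -1.73 with quercetin against hypoxia. For Pfkfb3 the 3 genes were Pcsk4, Klc4 and Dennd2c, at 0.991, 0.987 and 0.987, and for Pfkfb4 Krtap1-1, Tmem150b and Oacyl, at 0.988, 0.971 and 0.966. These points share groups and slides, so the 9 arrays are not independent points.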

How the data were processed

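Total RNA of 9 samples was measured on 1-colour Agilent rat arrays. Per the file headers, Agilent Feature Extraction 10.7.3.1 gave each spot's processed intensity, with the local background already subtracted, and the array design was annotated on build rn4. The deposited value table holds log2 values with a median of 5.71 per column; how the authors made it is not stated, and it served as an alternative only.

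The 1639 control spots were dropped, and 71 to 148 outlier spots per array were set missing; none was saturated. Processed intensities were put on the log2 scale, averaged over the spots of a probe and scaled by subtracting the array's 75th percentile (control probes apart). A probe was kept if some group had it well above background on each of its 3 arrays. Names came from a RefSeq table of assembly GRCr8 by accession for 18028 probes, by symbol for 3168 and by synonym for 400, and 19416 kept the file's name. Each gene was taken from its kept probe with the highest mean signal, which for 11797 of the 22107 genes carries a symbol found in that table, and a separate fit over all kept probes gave every probe of the members.

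A limma model with a mean per group was fitted to the 9 arrays (lmFit and eBayes, limma 3.58.1, R 4.3.3; 6 residual and 2.30 prior degrees of freedom), two-sided, with Benjamini-Hochberg adjustment over the 22107 genes. The script was tested on simulated data. The share of non-control spots well above background was 53.4% to 74.7% per array, and arrays of a group correlated at 0.986 to 0.994 across genes. The text names all 10 members with every probe, up to 4 genes of each pathway list with the smallest adjusted p in a comparison, the 3 genes most like each of Pdk1, Pfkfb3 and Pfkfb4, and further list genes chosen after their values were seen (Pdhb, Pfkl and Pfkp among them). The members, lists and alternatives were chosen with earlier results of these data known. Alternatives were normexp background correction (offset 50), quantile, median and spike-in scaling, no filter or a filter on all 9 arrays, the mean of a gene's probes, the deposited table, slide, scan day or replicate number as a block, only the compared groups, and leaving out each array. Replicate numbers did not pair the samples: the deviations of same-numbered arrays correlated at -0.27 to 0.02.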

Additional observations from a re-analysis of the deposited data

How the results depend on the processing

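Of the members' differences recomputed under alternatives, 531 kept direction and call, 51 lost the call, 10 gained one and 15 turned. With normexp background correction 5 members were called in hypoxia against normoxia and 2 with quercetin against normoxia (8 and 4 in the analysis above), and 6719, 6170 and 3176 genes instead of 14195, 12915 and 9793 in the 3 comparisons. With slide or scan day as a block 3 members were called in hypoxia against normoxia, and with scan day 5818 genes with quercetin against normoxia. Slide as a block gave no value for the quercetin comparisons, and Pfkfb4 had none where probes had to be well above background on all 9 arrays. Leaving out 1 array at a time gave 6 to 8, 5 to 7 and 3 to 5 members, and 12335 to 14414, 10998 to 14036 and 7699 to 9880 genes. Replicate numbers did not pair the samples, with 0, 1 and 0 of 6 arrays correlating best with their own number. The replicate block gave 7, 6 and 4 members and 13202, 11976 and 8513 genes. Among the differences that turned, 2 had been called, the Pdha1 rise in hypoxia against normoxia (0.39) and the Pfkfb4 fall with quercetin against hypoxia (-1.12), which was 0.049 with normexp. In hypoxia against normoxia those that turned were Pdha1 (-0.11) and Pfkfb2 (-0.16) under spike-in scaling, Pfkfb2 (-0.048) with the mean of its probes, and Pdp1 with normexp (0.012), with slide or scan day as a block (0.12) and over the arrays left out in turn (-0.16 to 0.13). With quercetin against normoxia they were Pdk1 (-0.14), Pdk2 (0.014) and Pfkfb3 (-0.14) with scan day as a block. With 1 array left out at a time that difference lay between -0.081 and 0.90 for Pdk1 and between -0.10 and 0.12 for Pdk2. With normexp, Pfkfb4 was 0.23 for quercetin against normoxia. The cause was not tested. Pfkfb4 and Pfkfb2 are dim, which limits their precision.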

Other observations

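Downstream of pyruvate dehydrogenase, the 16 measured citrate cycle genes went in both directions in hypoxia against normoxia, 3 higher and 3 lower, with a median change of 0.09. Sdha, a succinate dehydrogenase subunit, rose by 0.52 ± 0.07, Fh, fumarase, by 0.51 ± 0.08 and Idh3g, an isocitrate dehydrogenase subunit, by 0.46 ± 0.09, while Mdh2, mitochondrial malate dehydrogenase, fell by 1.01 ± 0.11. With quercetin against hypoxia 9 were lower and 4 higher (median -0.27), among them Suclg2, a succinyl-CoA ligase subunit, which fell by 0.79 ± 0.10, Fh, which fell by 0.70 ± 0.08, Sdha, which fell by 0.41 ± 0.07, and Mdh2, which rose by 0.57 ± 0.11. Against normoxia 8 were lower with quercetin and 1 was higher (median -0.22), and Suclg2 fell by 0.87 ± 0.10, Idh3a by 0.54 ± 0.09 and Sucla2, another succinyl-CoA ligase subunit, by 0.35 ± 0.08, while Sdhd, a succinate dehydrogenase subunit, rose by 0.36 ± 0.09. The genes named here passed at an adjusted p under 0.05 by limma. Of all genes tested, 64.2% were called in hypoxia against normoxia, 58.4% with quercetin against hypoxia and 44.3% with quercetin against normoxia. With slide as a block the hypoxia changes of Mdh2, Sdha and Fh passed (-0.83, 0.53 and 0.60) and that of Idh3g did not (0.35, adjusted p = 0.058), and over the list 2 genes were higher and 1 lower.

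Of 11 measured regulators known to act on the kinases or PFKFB genes, 3 were higher and 3 lower in hypoxia against normoxia (median -0.02). Hif1a, the oxygen-labile HIF subunit, fell by 0.67 ± 0.12 and Pparg, a fatty acid receptor, by 1.89 ± 0.12, whereas Arnt, the partner of the HIF alpha subunits, rose by 0.81 ± 0.11 and Foxo3, a forkhead factor, by 1.09 ± 0.24 (adjusted p = 0.0014, 6.6e-06, 2.9e-04 and 0.0042). With quercetin against hypoxia 4 fell and none rose (median -0.16): Epas1, another HIF alpha subunit, by 1.14 ± 0.16, Foxo3 by 1.06 ± 0.24, Arnt by 0.77 ± 0.11 and Ppara, another fatty acid receptor, by 0.68 ± 0.18. Hif1a then differed by -0.05 and did not pass (adjusted p = 0.74). Against normoxia 1 was higher with quercetin, Foxo1 at 0.72 ± 0.16, and 3 fell (median -0.02, and -0.21 without normoxia replicate 2), Epas1 by 1.72 ± 0.16, Pparg by 1.78 ± 0.12 and Hif1a by 0.72 ± 0.12. With slide as a block, Arnt, Hif1a and Pparg still passed in hypoxia against normoxia (0.71, -0.45 and -1.95), and Foxo3 did not (0.81, adjusted p = 0.082), leaving 1 regulator higher and 2 lower. Without the block, 64.2%, 58.4% and 44.3% of all genes were called in the 3 comparisons, in the order above. Pparg was dim, with mean levels of -5.68 with quercetin, -5.79 in hypoxia and -3.90 in normoxia. Messenger RNA levels do not measure HIF protein.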
